A study of Mus musculus with 24 samples.

Results

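The cell cycle and DNA replication genes are 44 listed genes that act in cell division, from the licensing of replication to the separation of the chromosomes. Each gene was represented by 1 probe set, the one with the highest mean over all arrays. A probe set assigned to the symbol alone was found for 43 of the 44 genes. All 43 lay above the filter on low signals, which 13942 of 18193 genes in the whole series passed. Ccnb1, which encodes a mitotic cyclin, is not analysed here.

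A dividing cell copies its DNA in S phase and separates the copies in mitosis. D-type cyclins with Cdk4 or Cdk6, followed by E-type cyclins with Cdk2, drive the cell out of G1 and free the E2f transcription factors, while the inhibitors encoded by Cdkn1a, Cdkn1b and Cdkn2c hold these kinases back. In many cell types TGF-beta keeps cells in G1, partly through such inhibitors, and in the developing palate and jaws it is also known to affect the proliferation of neural crest cells.

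The study took RNA from the jaws of mouse embryos of embryonic day 14.5 and hybridised it to 24 single-colour arrays. The 8 groups of 3 arrays were the distal and the proximal end of the mandible and of the maxilla in mutants and in control littermates, on a C57B6 background. Mutants came from Wnt1cre;Alk5fl/+ mice crossed with Alk5fl/fl mice. They lack Alk5 (gene symbol Tgfbr1), a TGF-beta receptor of type I, in cells where Wnt1-Cre acts, the cranial neural crest lineage that forms much of the facial skeleton and connective tissue. Skeletal muscle, surface epithelium and blood vessel lining come from other lineages and are not targeted. A cleft palate together with a skull vault defect served to pick out the mutants. The labels do not give the Cre and Alk5 alleles of the controls, but every embryo of this cross inherits at least 1 floxed allele. The labels name the tissue compartment as bone, and do not say whether arrays of a group are separate embryos, so the p-values measure the spread between these arrays, which may be technical. In tissue RNA such as this, fewer cells of a type and less RNA per cell cannot be told apart.

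Values are log2 signals, with array medians from 7.03 to 7.12. Array number 3 of the mutant distal maxilla correlated with its own group at a mean r of 0.9898, across all probe sets, and with the mutant distal mandible at 0.9903. Array number 3 of the mutant proximal maxilla correlated at 0.9882 with its own group and at 0.9913 with the mutant proximal mandible. Arrays number 1 and 2 of the control distal maxilla and of the mutant proximal maxilla also correlated better with another group, the mutant distal maxilla. For number 2 of the mutant proximal maxilla the values were 0.9907 with its own group and 0.9915 with that one. Array number 3 of the control distal maxilla had the narrowest spread of signals (SD 2.333, against 2.387 to 2.45 in the others). For some of the results that rest on these arrays, values without them are given too. The 3′ minus 5′ signal difference of Pcx, a check of RNA quality, was higher in mutants at both mandible ends. Distal arrays gave 1.317 to 1.387 in controls and 1.396 to 1.536 in mutants. Proximal arrays gave 1.139 to 1.383 and 1.386 to 1.675. The genotypes overlapped for Pcx in the maxilla, and for Actb and Gapdh in the mandible. Control maxilla arrays, at 1.43 to 1.578 for Pcx, all exceeded the control mandible. The bearing of this on the results was not tested. Tgfbr1 itself read 11.92 to 12.36 in the 12 control arrays and 12.20 to 12.57 in the 12 mutant arrays. Where its probe sets lie relative to the deleted part is not given in the sources used here, so its mean change of 0.26 ± 0.04 (adjusted p = 0.000146, limma) does not check the genotype.

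The stretches of DNA just upstream of the start of 6 members are shown because they carry, or lack, short elements known from cell cycle promoters, and because the members stand for different steps of the cycle. Cdk1 and Cdc20 act in mitosis and Mcm6 in replication, while Cdkn2c, Ccne1 and Cdk4 act in G1 and passed the test of the genotype described after this. Each stretch is 90 bases, 5′ to 3′ on the strand of the gene, from RefSeq on assembly GRCm38.p6, with the searched elements in capitals.
Cdk1, chr10:69352913-69353002, minus strand: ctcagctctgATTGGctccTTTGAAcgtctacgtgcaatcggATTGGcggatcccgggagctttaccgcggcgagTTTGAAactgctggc
Cdc20, chr4:118437344-118437433, minus strand: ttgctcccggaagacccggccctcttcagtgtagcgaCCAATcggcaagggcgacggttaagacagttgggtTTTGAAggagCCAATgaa
Mcm6, chr1:128359706-128359795, minus strand: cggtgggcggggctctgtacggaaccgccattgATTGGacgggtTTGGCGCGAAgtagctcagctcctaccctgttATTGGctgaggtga
Cdkn2c, chr4:109666757-109666846, minus strand: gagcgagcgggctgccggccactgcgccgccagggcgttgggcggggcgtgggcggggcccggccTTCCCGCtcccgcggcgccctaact
Ccne1, chr7:38107491-38107580, minus strand: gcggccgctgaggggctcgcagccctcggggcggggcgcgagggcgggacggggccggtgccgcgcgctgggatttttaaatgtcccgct
Cdk4, chr10:127063445-127063534, plus strand: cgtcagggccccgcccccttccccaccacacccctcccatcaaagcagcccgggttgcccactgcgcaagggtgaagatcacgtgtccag

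The elements searched, on both strands of the 250 bases upstream of each start, were 3 kinds. The cell cycle homology region (CHR) was searched as TTTGAA and as the variant TTCGAA, and the CCAAT box by the letters of its name. E2F sites were searched in the form TTCCCGC, in the form TTGGCGC, in the form TTCGCGC and in the form TTGCCGC. E2F matches can overlap each other, as they do in Mcm6. Of the 43 measured members, 35 matched a promoter in the table, with 40 windows. Among 14 windows of genes of G2, M phase and mitosis, 50% held a CHR, 92.9% a CCAAT box and 14.3% an E2F site. Among 12 windows of genes of replication and nucleotide synthesis these shares were 16.7%, 75% and 58.3%. Over all 32851 windows of 27025 genes they were 17.1%, 33.8% and 7.89%. These are matches of letters and not shown binding sites, and windows of 1 gene can share sequence.

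The members that passed the test of the genotype belonged to the G1 machinery, its inhibitors and the replicative helicase, and 0 of the 16 genes of mitosis passed. Averaged over the 4 regions, 6 of the 43 members were higher in the mutant and 4 were lower (limma, Benjamini-Hochberg adjusted p under 0.05 over all genes tested). Cdk4, Mcm4, Ccnd2, Mcm7, Cdk2 and Mcm2 rose, and Cdkn1a, Cdkn2c, Ccne2 and Ccne1 fell. The members that passed were 23.3% of the 43, against 40.6% of all genes tested. The median size of the change, whatever its sign, was 0.059 for the members and 0.110 for all genes. Without both mutant maxilla arrays of number 3, 5 members rose and 6 fell: Cdk2 was lost (adjusted p = 0.0833), and Mki67 (-0.10, adjusted p = 0.0276) and Pcna (-0.06, adjusted p = 0.0444, limma) were added.

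**Figure D1:**
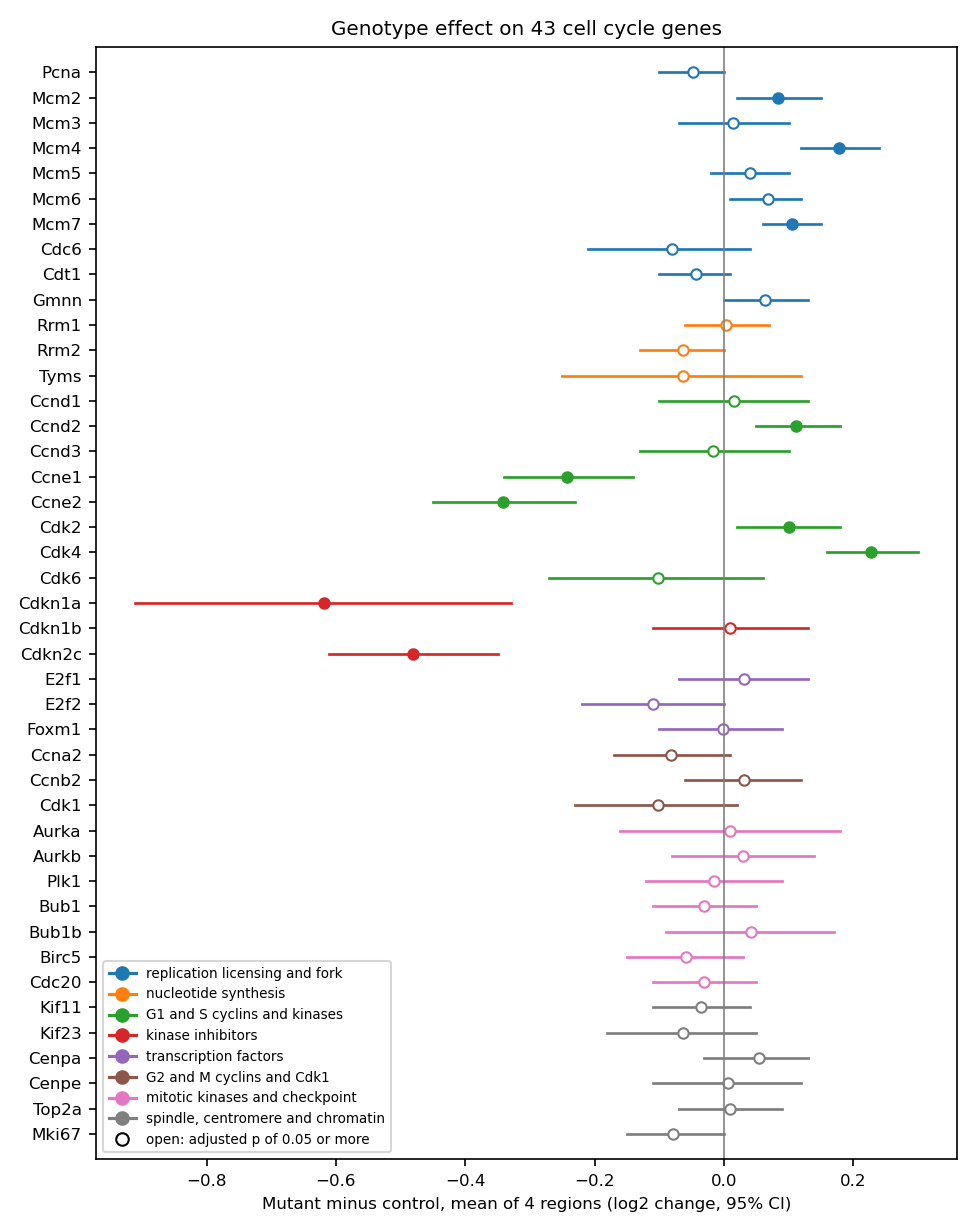
Genotype effect on the 43 members, as the mutant minus control log2 change averaged over 4 regions on the horizontal axis, with 95% confidence intervals from the fit over 24 arrays. Filled points passed the test; the 6 that rose lie between 0.08 and 0.23, and the 4 that fell lie between -0.24 and -0.62.

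Cdk4, the kinase partner of the D-type cyclins, was the one member whose 12 mutant arrays lay above all 12 control arrays. Its log2 signals ran from 12.54 to 12.73 with a median of 12.66 in the control arrays, and from 12.74 to 13.09 with a median of 12.91 in the mutant arrays. In the proximal mandible the control arrays read 12.65, 12.65 and 12.73 and the mutant arrays 12.82, 13.09 and 13.03. The groups did not overlap there, nor in any of the other 3 regions. The share of all genes whose groups do not overlap is not given here, so such placing is description only. The mean change over the regions was 0.23 ± 0.03 (log2 change ± SE, 12 arrays per genotype, 1.17-fold, adjusted p = 2.74e-05, limma). The labels do not say whether arrays of different regions come from the same embryos. When the regions of each array number were averaged first, with the number as a block, the adjusted p was 0.0194 (limma). By region the change was 0.21 in the distal mandible (adjusted p = 0.0366, limma) and 0.30 in the proximal mandible (adjusted p = 0.003, limma). In the distal maxilla (0.19, adjusted p = 0.112, limma) and the proximal maxilla (0.20, adjusted p = 0.0597, limma) it did not pass. With the array number as a block it passed in both (adjusted p = 0.039 and 0.0193, limma). With a random block, which joins arrays of the same genotype and number, it passed only in the proximal one (adjusted p = 0.084 and 0.0394, limma). The other probe sets of Cdk4 gave mean changes of 0.25 to 0.30. Its call in the distal mandible was lost in 5 of the 6 fits that left out 1 of the compared arrays (all but the one without array number 1 of the mutant, adjusted p up to 0.153), and its call in the proximal mandible in 0 of 6.

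The E-type cyclins, the partners of Cdk2 at the entry into S phase, both fell. Ccne1 in the distal mandible read 10.69, 10.98 and 10.81 in the control arrays and 10.32, 10.47 and 10.56 in the mutant arrays. The groups did not overlap, and the change was -0.38 ± 0.09 (adjusted p = 0.0096, limma), which was lost without array number 2 of the control (-0.30, adjusted p = 0.0623) or number 1 of the mutant (-0.31, adjusted p = 0.054). Over all regions Ccne1 ran from 10.10 to 11.10 with a median of 10.56 in the control arrays and from 9.94 to 10.86 with a median of 10.36 in the mutant arrays. Its mean change was -0.24 ± 0.05 (adjusted p = 0.000411, limma). When the 4 regions of each array number were averaged first, with the number as a block, the adjusted p was 0.057 (limma). Ccne2 in the proximal mandible read 10.70, 10.76 and 10.61 in the control arrays and 10.47, 10.36 and 10.13 in the mutant arrays. In the proximal maxilla it read 10.34, 10.68 and 10.47 in the control arrays and 10.14, 9.91 and 10.21 in the mutant arrays. Neither pair of groups overlapped, with changes of -0.37 ± 0.10 (adjusted p = 0.0147, limma) and -0.41 ± 0.10 (adjusted p = 0.0171, limma). The mean change of Ccne2 was -0.34 ± 0.05 (1.27-fold lower, adjusted p = 4.11e-05, limma). The control arrays ran from 10.30 to 10.88 and the mutant arrays from 9.86 to 10.58 over all regions. The call in the proximal mandible was lost without array number 2 of the control (-0.34, adjusted p = 0.0636) or number 3 of the mutant (-0.28, adjusted p = 0.0792). The call in the proximal maxilla was lost without array number 2 of the control (adjusted p = 0.0799) or of the mutant (adjusted p = 0.0717, limma), and with only the groups compared (adjusted p = 0.128). Cdk2, the kinase that these cyclins activate, rose by 0.10 ± 0.04 on average (adjusted p = 0.0362, limma), a call lost in 10 of 24 fits with 1 array left out (adjusted p up to 0.0652) and with the mean of probe sets (adjusted p = 0.453, limma). That mean takes in a Cdk2 probe set with a mean signal of 3.71, which was above the filter level in 0 arrays. The log2 signals of the chosen Cdk2 probe set ran from 11.11 to 11.46 with a median of 11.28 in the control arrays, and from 11.18 to 11.59 with a median of 11.38 in the mutant arrays, so that the genotypes overlapped.

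Of the D-type cyclins, which open the G1 phase in response to growth signals, Ccnd2 rose by 0.11 ± 0.03 on average (adjusted p = 0.00666, limma). Its log2 signals ran from 13.08 to 13.54 with a median of 13.28 in the control arrays and from 13.29 to 13.60 with a median of 13.39 in the mutant arrays. These ranges overlapped, and the call was kept in all 24 fits with 1 array left out. Ccnd1 had no mean change of that kind (0.02 ± 0.06, adjusted p = 0.85, limma) but differed between regions. In the proximal mandible it read 12.06, 11.88 and 11.97 in the control arrays and 12.64, 12.10 and 12.51 in the mutant arrays. In the proximal maxilla it read 12.30, 12.44 and 12.34 in the control arrays and 12.20, 12.26 and 11.88 in the mutant arrays. All 3 mutant arrays were therefore above the controls in the proximal mandible and below them in the proximal maxilla. In the distal mandible the control arrays read 12.02, 11.83 and 11.95 and the mutant arrays 11.82, 11.61 and 11.85, and in the distal maxilla they read 12.03, 12.10 and 12.01 and 12.16, 12.04 and 12.05, with overlap in both. Ccnd1 rose by 0.44 ± 0.11 in the proximal mandible (1.36-fold, adjusted p = 0.00716, limma, and 0.058 with only the groups compared) and stood at -0.24 ± 0.11 in the proximal maxilla (adjusted p = 0.172, limma). The other probe sets of Ccnd1 gave 0.41 to 0.45 and -0.27 to -0.15 in these regions. Ccnd3 and Cdk6 did not pass in any genotype comparison.

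Of the 3 inhibitors of the cyclin-dependent kinases, 2 fell. Cdkn2c, an inhibitor of Cdk4 and Cdk6, read 10.73, 10.58 and 10.68 in the control proximal mandible and 9.81, 9.82 and 9.90 in the mutant. These groups lay far apart relative to their spread, with a change of -0.82 ± 0.13 (1.77-fold lower, adjusted p = 0.000137, limma), which passed in all 6 fits with 1 array left out. In the distal maxilla the control arrays read 10.95, 10.73 and 10.69 and the mutant arrays 10.05, 10.04 and 10.64. The change there was -0.55 ± 0.13 (adjusted p = 0.0267, limma), and array number 3 of the mutant, one of the arrays that stand apart, lay closest to the controls. Without both maxilla arrays of that number it was -0.74 (adjusted p = 0.000505, limma), while with only the groups compared its adjusted p was 0.374 (limma). Without array number 3 of the control it was -0.60 (adjusted p = 0.0576), and the call was also lost without control array number 1, or without number 1 or 2 of the mutant (adjusted p up to 0.163, limma). In the distal mandible the mean was 10.90 ± 0.10 in controls and 10.62 ± 0.06 in mutants (SD, n = 3), and in the proximal maxilla 10.26 ± 0.20 and 9.99 ± 0.11 (SD, n = 3), and neither difference passed. Over all regions the control arrays ran from 10.09 to 10.97 and the mutant arrays from 9.81 to 10.69. The mean change of Cdkn2c was -0.48 ± 0.06 (adjusted p = 7.89e-06, limma).

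Cdkn1a, which encodes the inhibitor induced by p53 and, in many cells, by TGF-beta, had the largest mean change and the widest spread. The control arrays read 9.89, 10.20 and 10.50 in the distal mandible, and the mutant arrays 9.81, 9.85 and 10.11. In the proximal mandible the control arrays read 10.76, 10.83 and 11.14 and the mutant arrays 10.21, 9.56 and 10.86. The mutant groups overlapped the controls in both ends of the mandible. In the distal maxilla the control arrays read 10.93, 10.78 and 11.35 and the mutant arrays 10.05, 10.21 and 10.35, which did not overlap. In the proximal maxilla they read 10.49, 10.23 and 11.04 and 9.77, 9.51 and 10.39, which overlapped. In each of the 8 groups the array with number 3 was the highest. The changes of -0.27, -0.70, -0.81 and -0.70, in the same order of regions, did not pass (adjusted p = 0.562, 0.0808, 0.108 and 0.107, limma), while their mean did (-0.62 ± 0.14, 1.54-fold lower, adjusted p = 0.00132, limma). With the array number as a block the changes in the proximal mandible, distal maxilla and proximal maxilla had adjusted p = 0.00356, 0.0068 and 0.00727 (limma). With a random block these were 0.0477, 0.0741 and 0.0711 (limma). In the proximal maxilla the residuals of control and mutant arrays with the same number correlated at only -0.18 to 0.25 across genes. The mean change had an adjusted p of 0.00469 when the regions of each number were averaged first (limma). Cdkn1b, the inhibitor linked to quiescence, had a mean change of 0.01 ± 0.06 (adjusted p = 0.903, limma).

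**Figure D2:**
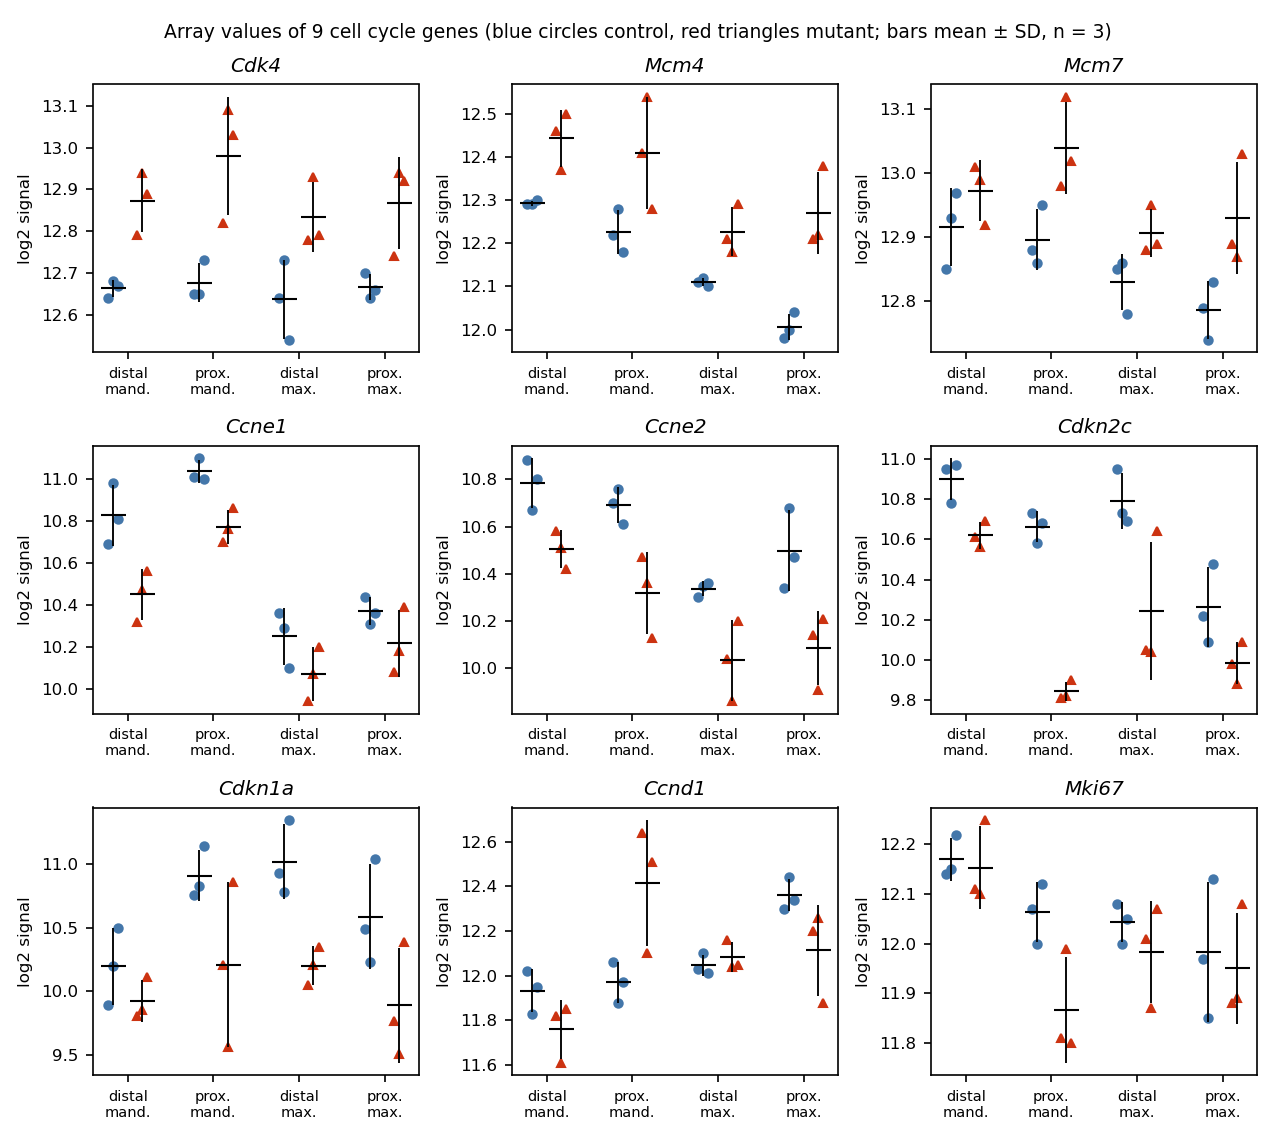
Log2 signal of 9 members in each of the 24 arrays, by region on the horizontal axis, with control arrays as circles, mutant arrays as triangles, and bars for the mean ± SD of 3 arrays. Cdk4 is higher in every mutant group, Cdkn2c is lowest in the mutant proximal mandible at 9.81 to 9.90, and Mki67 stays between 11.80 and 12.25 throughout.

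Among the genes of replication, 3 members of the Mcm helicase, the complex that unwinds DNA at the fork, rose. Of the 13 genes of replication and nucleotide synthesis, 3 therefore rose and 0 fell in the mean over the regions. Of all 13942 genes tested, 3519 rose and 2136 fell. Mcm4 in the proximal maxilla read 11.98, 12 and 12.04 in the control arrays and 12.21, 12.22 and 12.38 in the mutant arrays, and did not overlap. In the proximal mandible it read 12.22, 12.28 and 12.18 in the control arrays and 12.41, 12.54 and 12.28 in the mutant arrays, and the lowest mutant array touched the highest control array. The changes were 0.27 ± 0.06 (adjusted p = 0.00602, limma) and 0.18 ± 0.06 (adjusted p = 0.0273, limma), with a mean over the regions (control 11.98 to 12.30, mutant 12.18 to 12.54) of 0.18 ± 0.03 (1.13-fold, adjusted p = 6.53e-05, limma). The other Mcm4 probe set above the filter gave a mean change of 0.09 and a change of -0.08 in the distal maxilla, so the size depends on the probe set. With the mean of the probe sets the calls in the proximal maxilla (adjusted p = 0.13) and the proximal mandible (adjusted p = 0.0759, limma) were lost. Mcm7 in the proximal mandible read 12.88, 12.86 and 12.95 in the control arrays and 12.98, 13.12 and 13.02 in the mutant arrays, a change of 0.14 ± 0.05 (adjusted p = 0.0368, limma). That call and the one of Mcm4 in the same region were each lost in 4 of 6 fits with 1 array left out (adjusted p up to 0.183 and 0.174). The mean change of Mcm7 was 0.11 ± 0.02 (adjusted p = 0.00132, limma). Mcm2 ran from 11.34 to 11.64 with a median of 11.47 in the control arrays and from 11.42 to 11.75 with a median of 11.56 in the mutant arrays. Its genotypes overlapped in 3 of 4 regions, and the mean change was 0.08 ± 0.03 (adjusted p = 0.0383, limma), lost in 14 of 24 fits with 1 array left out (adjusted p up to 0.0776).

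The other replication genes did not pass the test. Mcm3, Mcm5 and Mcm6 had mean changes of 0.01, 0.04 and 0.07, so that all 6 helicase members were on the positive side, with a median of 0.076. Pcna, the sliding clamp of the polymerases, stood at -0.05, and the licensing factors Cdc6 and Cdt1 at -0.08 and -0.04. Gmnn, which blocks relicensing, stood at 0.06. The enzymes of nucleotide synthesis, Rrm1, Rrm2 and Tyms, lay between -0.06 and 0.00. The signal of Tyms, from 6.01 to 6.71, lay close to the filter level of 6.33 to 6.47, which limits its precision. Mcm6 lay nearest to the threshold (adjusted p = 0.0523) and passed with the array number as a block (adjusted p = 0.0321), but not with a random block (adjusted p = 0.184) or with the regions of each number averaged first (adjusted p = 0.108, limma).

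Members of G2, M phase and mitosis had small changes. In the mean over the regions 0 of 16 passed (limma, with 1 of 16 at an unadjusted p under 0.05), against 40.6% of all genes, and the changes ran from -0.10 for Cdk1, the mitotic kinase, to 0.06 for Cenpa, the centromeric histone. The 95% confidence intervals of all 16 lay between -0.23 and 0.18. Mki67, the antigen used to count cycling cells, ran from 11.85 to 12.22 with a median of 12.07 in the control arrays and from 11.80 to 12.25 with a median of 12 in the mutant arrays. Its genotypes overlapped, with a mean change of -0.08 ± 0.04 (adjusted p = 0.0981, limma). Top2a, the topoisomerase of S phase and mitosis, ran from 12.05 to 12.35 in the control arrays and from 11.99 to 12.37 in the mutant arrays, a change of 0.01 ± 0.04 (adjusted p = 0.861, limma). The mitotic kinases Aurka, Aurkb and Plk1 stood at 0.01, 0.03 and -0.02. The checkpoint and exit genes Bub1, Bub1b, Birc5 and Cdc20 lay between -0.06 and 0.04, the motors Kif11, Kif23 and Cenpe between -0.06 and 0.01, and the cyclins Ccna2 and Ccnb2 at -0.08 and 0.03. Other probe sets above the filter differed from the chosen ones for Bub1 (0.22 against -0.03), Cenpa (-0.10 against 0.05) and Top2a (-0.12 against 0.01), so these sizes and signs depend on the probe set. The transcription factors E2f1, E2f2 and Foxm1, which drive the S phase and mitotic programmes, stood at 0.03, -0.11 and -0.00, and none passed. E2f2 passed with the array number as a block (adjusted p = 0.0329), with the mean of probe sets (-0.12, adjusted p = 0.025) and without array number 2 of the control proximal mandible (-0.14, adjusted p = 0.0308, limma). It did not pass with a random block (adjusted p = 0.224) or with the regions of each number averaged first (adjusted p = 0.211, limma).

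For the mitotic genes, 1 array bears on the result in the proximal mandible. Their mean log2 signal was 11.02, 11.03 and 11.11 in the control arrays and 10.85, 11.17 and 10.90 in the mutant arrays, with array number 2 of the mutant above all controls and the other mutant arrays below them. Mki67 there read 12.07, 12 and 12.12 in the control arrays and 11.81, 11.99 and 11.80 in the mutant arrays, a change of -0.20 ± 0.07 (adjusted p = 0.067, limma, 0.0246 with the array number as a block and 0.064 with a random block). Without array number 2 of the mutant the change of Mki67 was -0.26 (adjusted p = 0.0321, limma) and that of Birc5, an inhibitor of apoptosis that also guides chromosome separation, was -0.24 (adjusted p = 0.0287, limma). Without that array, Mki67, Birc5 and Cdk1 also fell in the mean over the regions, by 0.09, 0.09 and 0.14. With the array number as a block, Cdk1 and Mki67 passed in that mean (adjusted p = 0.0455 and 0.0456, limma). Neither passed with a random block (adjusted p = 0.305 and 0.245) or when the regions of each number were averaged first (adjusted p = 0.156 and 0.111, limma). Mki67 passed too without array number 2 of the control proximal maxilla (adjusted p = 0.0384) or number 3 of the mutant proximal maxilla (adjusted p = 0.0426, limma), so its small mean change lies at the threshold. In the other 3 regions Mki67 stood at -0.02 to -0.06 and overlapped between the genotypes. Cenpa was higher in the mutant distal mandible with array weights (0.19, adjusted p = 0.0164, limma). It passed there with only the groups compared as well (adjusted p = 0.027, limma), but not in the main model (adjusted p = 0.109, limma).

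In each region the share of members that passed was below that of all genes, a difference that was not tested. In the distal mandible 1 rose and 1 fell (4.65% of the members, against 16.0% of all genes tested). The proximal mandible had 4 that rose and 2 that fell (14% against 19.9%). In the distal maxilla 0 rose and 1 fell (2.33% against 2.96%), and in the proximal maxilla 1 rose and 1 fell (4.65% against 10.5%). In all, 7 members passed in at least 1 region and 36 in none. The sign was positive in all 4 regions for 7 members (16.3%, against 29.1% of all genes) and negative in all 4 for 12 (27.9%, against 14.0% of all genes). The median change was -0.05 for the members and 0.04 for all genes in the proximal mandible, and between -0.02 and 0.02 for the members in the other 3 regions. Without both mutant maxilla arrays of number 3, 2 members fell in the distal maxilla, Ccne2 joining Cdkn2c (adjusted p = 0.035, limma), and 1 rose and 1 fell in the proximal maxilla. Without array number 3 of the control distal maxilla, 0 passed in that region.

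**Figure D3:**
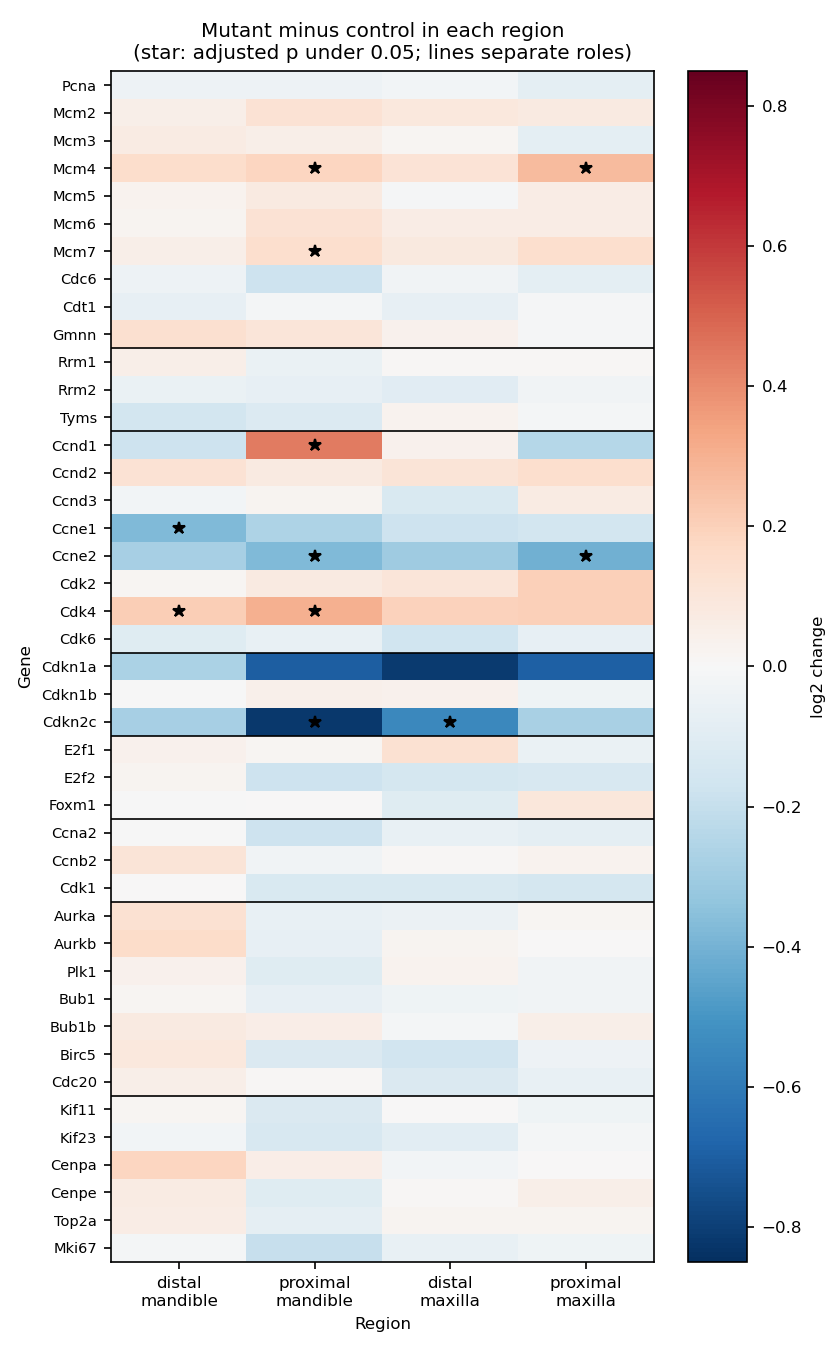
Mutant minus control log2 change of the 43 members (rows, in order of role) in each of the 4 regions (columns), with red for higher in the mutant and blue for lower. Stars mark the 11 changes that passed the test, of which 6 are in the proximal mandible, where Cdkn2c stands at -0.82 and Ccnd1 at 0.44.

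Whether the genotype effect differed between jaws or between ends was tested directly. The effect in the mandible minus that in the maxilla passed for 0 of 43 members (limma, 1 at an unadjusted p under 0.05), against 6.76% of all genes. The effect in the distal minus that in the proximal ends passed for 0 of 43 (limma, 0 at an unadjusted p under 0.05), against 0.115% of all genes. In differences between single regions, added after the data were seen, 1 member passed. The effect on Ccnd1 in the proximal mandible exceeded that in the proximal maxilla by 0.68 ± 0.16 (adjusted p = 0.0408, limma), where 0.975% of all genes passed. The call was lost in 10 of 12 fits with 1 array left out (0.57 to 0.84, adjusted p = 0.0114 to 0.126, limma). It was also lost without both mutant maxilla arrays of number 3 (0.57, adjusted p = 0.0883, limma).

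In the controls, several G1 and S phase transcripts were higher in the mandible than in the maxilla. At the distal ends 4 of 43 members were higher in the mandible and 1 was lower (11.6% of the members, against 17.8% of all genes, and 9.3% higher against 8.37%). At the proximal ends 11 were higher and 1 was lower (27.9% against 26.6%, and 25.6% higher against 11.4%). With the mean of probe sets only 7 were higher at the proximal ends, since Ccnd3, Cdk2, Cdt1, Foxm1, Mcm4 and Mcm5 were lost and Mcm2 and Mcm3 were added. For Ccnd3, Cdk2, Cdt1 and Foxm1 that mean takes in a probe set above the filter level in 0 arrays. With 1 array left out, 5 to 9 members passed there and 2 to 4 at the distal ends. The members' median difference was 0.093 at the distal and 0.125 at the proximal ends, against 0.002 and 0.020 for all genes. Of the 43 members, 36 and 40 were on the positive side. Without array number 3 of the control distal maxilla, which stands apart, 4 members were higher in the distal mandible and 0 lower: Foxm1 joined (0.29, adjusted p = 0.0107), and Mcm4 and Cdkn1a were lost (limma). These are comparisons of the same control arrays that enter the genotype comparisons.

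Ccne1 was higher in the mandible at both ends. It read 10.69, 10.98 and 10.81 in the control distal mandible and 10.36, 10.29 and 10.10 in the distal maxilla, a difference of 0.58 ± 0.09 (1.49-fold, adjusted p = 0.000274, limma). At the proximal ends it read 11.01, 11.10 and 11 in the mandible and 10.44, 10.31 and 10.36 in the maxilla, a difference of 0.67 ± 0.09 (1.59-fold, adjusted p = 4.08e-05, limma). The jaws did not overlap at either end, and both calls were kept in all 6 fits with 1 array left out. Ccne2 was higher in the distal mandible, at 10.88, 10.67 and 10.80 against 10.30, 10.35 and 10.36, by 0.45 ± 0.10 (adjusted p = 0.00505, limma), and its proximal difference did not pass. The mutant proximal mandible, at 10.70 to 10.86 for Ccne1, still lay above the control proximal maxilla.

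Among the genes of replication and nucleotide synthesis, Rrm2 and Mcm4 were higher in the mandible at both ends. Rrm2, the small subunit of ribonucleotide reductase, read 12.65, 12.57 and 12.58 in the distal mandible and 12.35, 12.37 and 12.40 in the distal maxilla. At the proximal ends it read 12.54, 12.58 and 12.43 and 12.26, 12.22 and 12.31. The differences were 0.23 ± 0.06 (adjusted p = 0.0121, limma) and 0.26 ± 0.06 (adjusted p = 0.00359, limma), without overlap, and the distal one was lost without array number 1 of the distal mandible (0.20, adjusted p = 0.0558). Mcm4 read 12.29, 12.29 and 12.30 against 12.11, 12.12 and 12.10 at the distal ends, and 12.22, 12.28 and 12.18 against 11.98, 12 and 12.04 at the proximal ends. It differed by 0.18 (adjusted p = 0.0314, limma) and 0.23 (adjusted p = 0.00572, limma). The distal call was lost in all 6 fits with 1 array left out (adjusted p up to 0.0866), and the proximal one with the mean of probe sets (adjusted p = 0.123, limma). Cdt1, which loads the helicase, read 11.72, 11.65 and 11.64 in the proximal mandible and 11.41, 11.41 and 11.51 in the proximal maxilla, a difference of 0.23 ± 0.05 (adjusted p = 0.00381, limma) that was lost with the mean of probe sets (0.18, adjusted p = 0.057). Mcm5, Cdc6, Ccnd2, Ccnd3, Cdk2, Cdkn2c and Foxm1 were also higher in the proximal mandible, by 0.16 to 0.40. These 7 calls were each lost in 2 to 6 of 6 fits with 1 array left out. All 13 genes of replication and nucleotide synthesis were on the positive side at both ends.

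The remaining differences between jaws ran the other way or did not pass. Ccnd1 was lower in the proximal mandible, at 12.06, 11.88 and 11.97 against 12.30, 12.44 and 12.34, a difference of -0.38 ± 0.11 (adjusted p = 0.014, limma) that was lost without array number 2 of either jaw (adjusted p = 0.0639 and 0.0525). Cdkn1a was lower in the distal mandible, at 9.89, 10.20 and 10.50 against 10.93, 10.78 and 11.35, a difference of -0.82 ± 0.27 (adjusted p = 0.0421, limma), lost in 4 of 6 fits with 1 array left out (adjusted p up to 0.167). At the proximal ends its difference was 0.32, which did not pass, and the difference between these differences, -1.15 ± 0.39, did not pass either (adjusted p = 0.149, limma). Of the 16 members of G2, M phase and mitosis, 0 passed at either end (limma, 2 and 1 at an unadjusted p under 0.05), with medians of 0.074 and 0.108. With array weights Bub1 was higher at the distal ends, and Aurkb and Birc5 at the proximal ends. Birc5 there also passed with the array number as a fixed or a random block (adjusted p = 0.0257 and 0.0325, limma). With only the groups compared it passed too (adjusted p = 0.0395, limma), as did Aurkb after quantile normalization (adjusted p = 0.0382, limma).

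**Figure D4:**
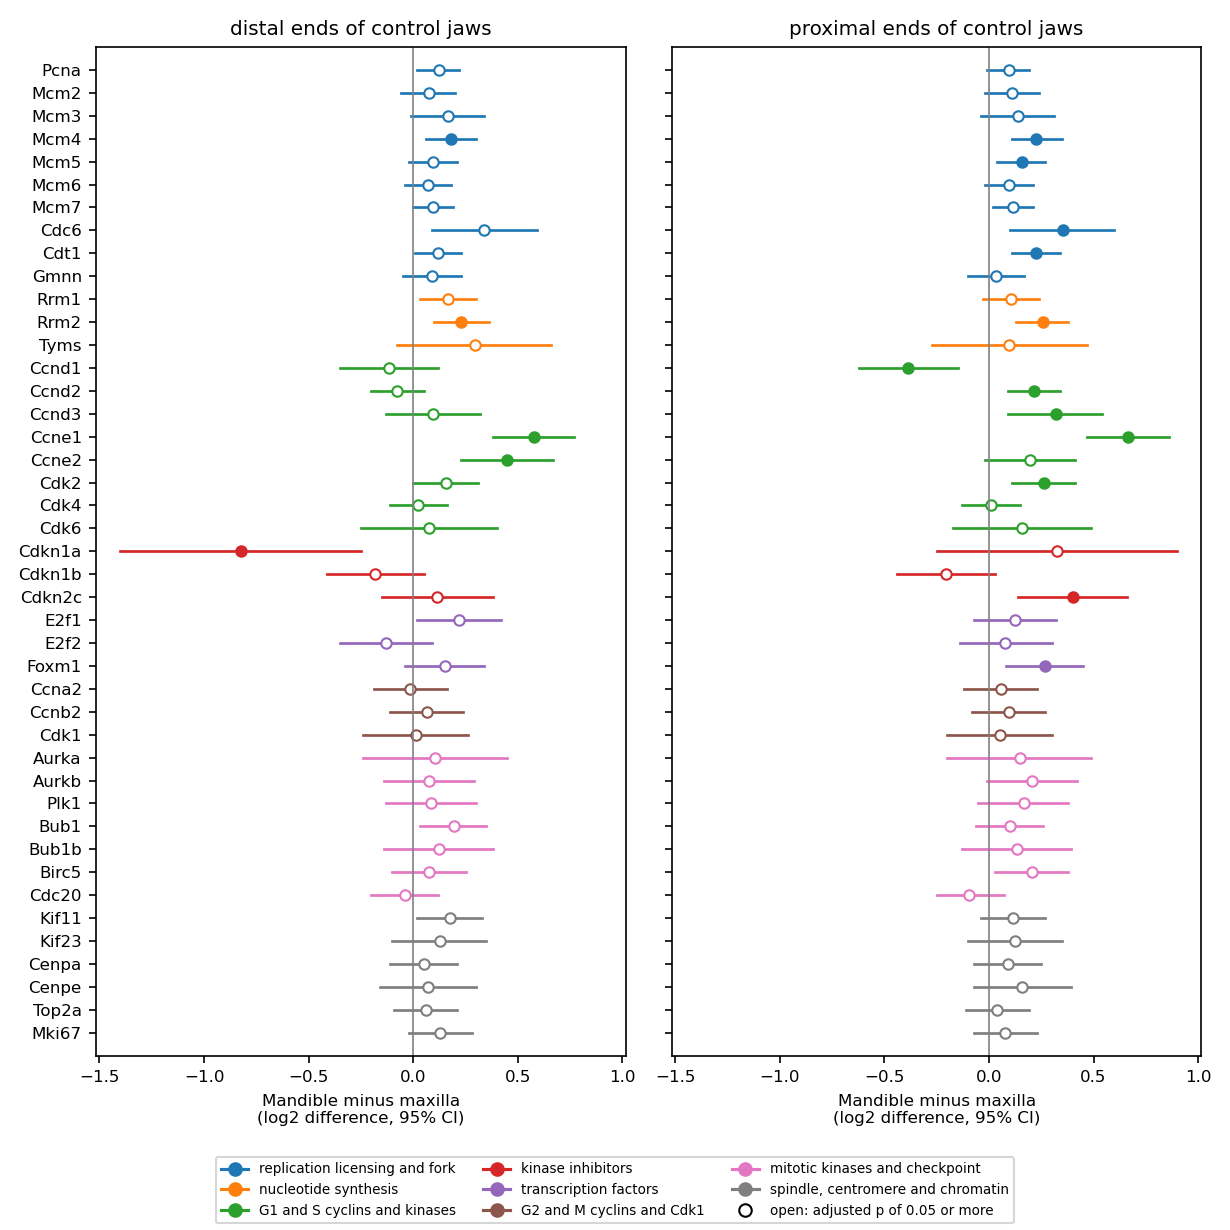
Mandible minus maxilla log2 difference in control arrays for the 43 members, at the distal ends (left) and the proximal ends (right), with 95% confidence intervals and filled points for differences that passed the test. Ccne1 stands furthest to the right at both ends, at 0.58 and 0.67, and 11 members are filled on the positive side at the proximal ends.

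Few members differed between the ends of a control jaw. Of the 43 members, 1 passed in the mandible (5.45% of all genes did) and 1 in the maxilla (10.9% of all genes did). Ccnd2 was lower at the distal end of the mandible, at 13.16, 13.26 and 13.24 against 13.42, 13.36 and 13.54, a difference of -0.22 ± 0.06 (adjusted p = 0.0396, limma), lost in 5 of 6 fits with 1 array left out (adjusted p up to 0.211). Cdkn2c was higher at the distal end of the maxilla, at 10.95, 10.73 and 10.69 against 10.22, 10.09 and 10.48, by 0.52 ± 0.13 (1.44-fold, adjusted p = 0.00981, limma). That call was lost without array number 2 of the proximal end (0.44, adjusted p = 0.0596). With the array number as a block, Cdkn1a was also lower at the distal end of the mandible (-0.71, adjusted p = 0.00894, limma).

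Genes of the same pathways were read from 5 further lists, which share some genes with each other. The members Cdkn1a and Cdkn1b are also on the list of cytostatic genes, and Cdkn1a on that of p53 targets. Of 45 other replication genes, 15 rose in the mean over the regions and 0 fell (limma, 33.3% against 40.6% of all genes, of which 3519 rose and 2136 fell), with a median of 0.090 against 0.022 for all genes. Gins1, a part of the replicative helicase, rose by 0.28 ± 0.05 (adjusted p = 0.000144), Rfc3 of the clamp loader by 0.26 ± 0.04 (adjusted p = 0.00016), and Orc4 of the origin complex by 0.15 ± 0.03 (adjusted p = 0.000695, limma). Of 49 other mitosis genes, 3 rose and 7 fell (20.4%), with a median of -0.011. Hmmr and Anln, which act at the spindle and in cytokinesis, fell by 0.19 and 0.18 on average and by 0.40 and 0.34 in the proximal mandible. Cdc25a, the phosphatase that activates Cdk2, rose by 0.14 ± 0.03 (adjusted p = 0.000212, limma).

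Of 28 other regulators of G1 and quiescence, 6 rose and 4 fell (35.7%, against 40.6% of all genes), with a median of 0.007. E2f6, a repressor of the E2f family, rose by 0.30 ± 0.04 (adjusted p = 4.7e-06, limma), and Mycn rose by 0.39 ± 0.06 (adjusted p = 6.42e-05, limma). Myc, on this list and on that of cytostatic genes, was lower, at -0.15 ± 0.04 (adjusted p = 0.00379, limma). In the proximal mandible it stood at -0.30 ± 0.07 (adjusted p = 0.00665, limma). Of 10 cytostatic genes of TGF-beta, 4 rose and 3 fell (70%), with the member Cdkn1a among those that fell. Id1 rose by 0.37 ± 0.03 (adjusted p = 5.53e-08, limma), and Gadd45b, a stress gene, fell by 0.51 ± 0.06 (adjusted p = 1.3e-06, limma). Of 15 p53 targets, 5 rose and 3 fell (53.3%). Plk2 rose by 0.41 ± 0.05 (adjusted p = 2.85e-06, limma), while Ccng1 fell by 0.30 ± 0.05 (adjusted p = 5.25e-05, limma) and Cdkn1a, on that list too, fell.

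Markers of other cell types moved with the genotype and with the jaw. In the mean over the regions 15 of 17 cartilage genes and 8 of 8 bone genes above the filter were lower in the mutant (medians -1.919 and -1.811). Lower too were 7 of 16 skeletal muscle genes (-0.721) and 10 of 14 macrophage and osteoclast genes (-0.624), while 6 of 11 epithelial genes were higher (0.270). Of the other lists, 3 of 10 endothelial genes were lower, 3 of 10 neuron and glia genes were higher, and 0 of 5 erythroid genes passed (limma). Of all genes tested, 40.6% passed in this mean. In the maxilla 0 muscle genes and 0 macrophage and osteoclast genes passed at either end. In the mandible 10 muscle genes were lower at the distal and 2 at the proximal end, and 9 macrophage and osteoclast genes at each end (limma). In the region where most members passed, the proximal mandible, the log2 of the summed signal of the bone list was 15.60 to 15.72 in controls and 13.36 to 14.78 in mutants. That of the cartilage list was 15.61 to 15.84 and 14.24 to 15.39. In the distal mandible the bone list read 14.67 to 14.90 and 12.53 to 13.06, and the cartilage list 15.76 to 15.93 and 13.21 to 14.15. In the distal maxilla they read 13.13 to 14.30 and 12.79 to 14.42, and 13.98 to 16.38 and 14.07 to 14.83. In the proximal maxilla they read 13.49 to 14.52 and 11.94 to 12.76, and 16.54 to 16.58 and 12.85 to 14.95. Between the control jaws, 17.8% of all genes passed at the distal and 26.6% at the proximal ends. Of the muscle genes, 13 of 16 at the distal and 11 of 16 at the proximal ends were higher in the mandible. Their summed signal was 14.57 to 15.48 and 14.84 to 15.90 in the distal and proximal mandible, and 11.59 to 12.23 and 12.47 to 14.67 in the maxilla. Neuron and glia genes were lower in the mandible (8 of 10 and 9 of 10), at 11.58 to 12.05 and 11.49 to 11.94 against 13.06 to 13.82 and 14.13 to 14.55 in the maxilla. Bone genes were higher in the mandible, 3 of 8 at the distal and 6 of 8 at the proximal ends (medians 1.164 and 2.056), as were 5 and 6 of 14 macrophage and osteoclast genes. At the distal ends 5 of 10 endothelial genes were higher too. Epithelial genes were lower, 7 of 11 at each end (medians -0.819 and -1.397), with 3 of 11 higher at the proximal ends. The summed signal of the epithelial list was 14.79 to 15.12 and 13.19 to 13.93 in the mandible, and 15.19 to 15.74 and 14.07 to 14.69 in the maxilla. The part of these cell types in the results on cell cycle genes was not tested.

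Some members moved with the number of the array in every group. Cdkn1a, which also differed between the genotypes, was highest in array number 3 in all 8 groups. Aurka and Bub1b were lowest in array number 1 in all 8 groups, and Cdk6 was lowest in array number 2 in all 8. Such a pattern, with 1 number highest or lowest in all 8 groups, was found for 4 of 43 members (9.3%) and for 5.31% of all genes tested. What an array number stands for, such as an embryo, a litter or a day, is not given in the sources used here.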

How the data were processed

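The authors deposited 1 table of log2 signals for 24 arrays, which the submitters' processing notes say were normalized by RMA. The RMA version is not given in the sources used here, and the log base was read from the range of 3.29 to 14.86. Of 45101 probe sets, 34945 carry exactly 1 symbol in the array annotation, 932 several and 9160 none. Genes entered the test where their chosen probe set was above the array's 40th percentile in 3 or more arrays. Arrays were grouped by their labels.

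All arrays entered 1 model, with a mean for each of 8 groups, in limma 3.58.1 (lmFit, and eBayes with a trend) in R 4.3.3, and p-values were adjusted over 13942 genes by Benjamini-Hochberg. Changes are mutant minus control, distal minus proximal, or mandible minus maxilla. Tables and figures were made with matplotlib 3.10.9, numpy 2.4.6 and pandas 2.3.3 in Python 3.11.15. The fit was tested on simulated data. With 3 arrays a group, their number limits the precision.

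The members and lists were chosen with earlier results of these data known. Array values are given for the members that passed with the largest statistics (up to 6 in a genotype comparison, up to 4 in the others), for members of a role that passed in opposite directions, and always for Cdkn1a, Mki67, Ccnd1 and Mcm2. From each other list up to 4 genes may be named.

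The labels number the arrays 1 to 3. Residuals of arrays with the same number correlated above 0.1 in all 3 pairs between genotypes in the distal mandible (0.14 to 0.18), the proximal mandible (0.19 to 0.36), the distal maxilla (0.21 to 0.43) and the mean of regions (0.28 to 0.42), and for the 2 ends of the control mandible (0.27 to 0.54). They did not in the proximal maxilla (-0.18 to 0.25) or the other control comparisons. The main model held no term for the number, so p-values given without a setting ignore any such pairing. Alternatives were the number as a fixed block, a random block, quantile normalization, other filters, array weights, the mean of probe sets, only the groups compared, and each array left out. The mean of probe sets took in every probe set of a symbol, also those below the filter level, so a lost call can reflect their low signal. The fixed block was the number over all groups. The random block joined the arrays of 1 genotype with the same number, so it links regions and does not pair mutant with control arrays.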

Additional observations from a re-analysis of the deposited data

Results flagged for a closer look

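The genotype effect on Ccnd1, a D-type cyclin, differed between 2 regions. It was 0.68 ± 0.16 larger in the proximal mandible than in the proximal maxilla (log2 difference ± SE, adjusted p = 0.0408, limma), and every mutant array lay above the controls in the first region and below them in the second. The difference was flagged by its test and by this opposite placing, which rest on the same arrays and are not separate support. It comes from contrasts chosen after the data were seen. It passed with the array number as a block (adjusted p = 0.0211, limma), and did not pass with array weights (0.55, adjusted p = 0.0768, limma) or with only the groups compared (0.68, adjusted p = 0.165, limma). The call was lost in 10 of 12 fits with 1 array left out. Without both mutant maxilla arrays of number 3 it was lost too (0.57, adjusted p = 0.0883, limma).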

How the results depend on the processing

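The number of the 43 members that passed depended on the setting in most comparisons of 1 region or 1 jaw, and the cause was not tested. In the distal mandible it was 2, and 6 with array weights or 7 with only the groups compared. In the distal maxilla it was 1, and 3 with the replicate block, 4 with array weights, 0 with only the groups compared, and 2 without both mutant maxilla arrays of number 3, a setting chosen after seeing the data. In the proximal maxilla it was 2, and 4 after quantile normalization, 6 with the replicate block, 1 with the mean of probe sets and 0 with only the groups compared. Between the ends of the control mandible it was 1, and 2 with the replicate block (fixed or random), 5 with array weights, 0 with the mean of probe sets and 2 with only the groups compared. Between the ends of the control maxilla it was 1, and 2 after quantile normalization, with the replicate block (fixed or random), with array weights and with only the groups compared. Between the distal ends of the control jaws it was 5, and 8 with the random replicate block or 10 with array weights. In the mean over the regions it was 10, and 14 with the replicate block, 8 with the random one and 7 with the numbers averaged first. The block moved the proximal mandible from 6 to 9. Between the proximal ends of the control jaws the count was 12, and 8 with the mean of probe sets.

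With 1 array left out at a time the counts ran from 0 to 1 in the distal mandible, 4 to 6 in the proximal mandible, 0 to 2 in the distal maxilla, 1 to 4 in the proximal maxilla and 8 to 14 in the mean. They ran from 0 to 1 for the difference between jaws, where Ccnd1 passed without array number 2 of the mutant proximal mandible, and from 0 to 1 between the ends of each control jaw. Between the control jaws they ran from 2 to 4 at the distal and 5 to 9 at the proximal ends. The median change of the members ran from -0.125 to 0.001 in the proximal mandible and from 0.014 to 0.114 between the ends of the control maxilla. No change of a named member that passed the test turned its sign. Only the groups compared could not be run for the mean and the differences of effects. Few arrays per group and the unknown origin of the array numbers limit these results.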
